A study of Mus musculus with 8 samples.

Results

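*Dyrk3*, *Klhdc4*, *Psrc1* and *Zfp809* were 4 of the 1425 genes that the authors' deposited table assigned to regions with higher p53 binding after bleomycin (BLM). They were chosen from the 185 genes with such a region within 5 kb of the transcription start site (TSS). Ordered by the mean percentile of the peak in the BLM libraries, they were the only genes among the first 10 that are outside a panel of 20 established p53 target genes. The panel was chosen here and is not a full list, so a gene outside it may also be a known target. The peaks were measured by chromatin immunoprecipitation with an antibody to p53 (D2H9O), followed by sequencing (ChIP-seq), in alveolar organoids. These are small spheres of lung epithelium grown in gel from alveolar type 2 (AT2) cells, here of wild-type male mice that were 8 to 12 weeks old. The cultures received vehicle (CTRL, DMSO, 2 libraries) or 100 μM BLM (2 libraries) for 24 h, and the labels name no deletion or transgene in either group. The organoids came from 2 independent mice, and the sources used here do not say which libraries share a mouse, so the spread between libraries may be partly technical. The 4 input libraries (sheared chromatin without the antibody) had no peak list analysed here. The lists hold no expression values, so the identity of the cells was not checked against AT2 markers.

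p53 is a transcription factor that is held at a low level by Mdm2 and accumulates after DNA damage. It binds DNA as a tetramer, at response elements made of a pair of similar half-sites with a short spacer or none, and recruits the machinery that starts transcription. The classic targets carry such elements in the promoter or the first intron, and serve cell cycle arrest (*Cdkn1a*, which encodes p21), cell death (*Bax*, *Bbc3*) and feedback on p53 itself (*Mdm2*). Bleomycin breaks DNA strands, and is used to injure the alveolar epithelium in models of lung fibrosis. The 4 genes serve unlike functions. *Dyrk3* encodes a dual-specificity kinase that acts on the dissolution of stress granules and other condensates. *Psrc1* encodes a proline- and serine-rich protein of the mitotic spindle that binds microtubules. *Zfp809* encodes a KRAB zinc finger protein that recognises retroviral DNA and recruits silencing machinery to it. *Klhdc4* encodes a protein with kelch domains.

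The sequence just upstream of each start is shown because the summits of the enriched peaks lay outside it. RefSeq sequences on GRCm38.p6 were found for all 4 genes. Each line below gives the 250 bases before the annotated start, 5′ to 3′ on the strand of the gene, for the first start listed where the gene had 2. Capitals mark a match to the 10-letter p53 half-site consensus with at most 1 mismatch.
*Dyrk3*, chr1:131138235-131138484, minus strand: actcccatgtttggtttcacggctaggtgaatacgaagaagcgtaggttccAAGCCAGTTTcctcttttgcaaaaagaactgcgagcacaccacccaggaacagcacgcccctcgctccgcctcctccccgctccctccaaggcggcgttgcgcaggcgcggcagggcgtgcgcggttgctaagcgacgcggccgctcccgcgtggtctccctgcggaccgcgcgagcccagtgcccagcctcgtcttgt
*Klhdc4*, chr8:121829570-121829819, minus strand: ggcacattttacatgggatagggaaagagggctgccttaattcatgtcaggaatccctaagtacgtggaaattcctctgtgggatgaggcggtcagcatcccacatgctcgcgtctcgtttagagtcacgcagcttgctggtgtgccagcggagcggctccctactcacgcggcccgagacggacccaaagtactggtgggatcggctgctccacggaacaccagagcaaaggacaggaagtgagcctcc
*Psrc1*, chr3:108383554-108383803, plus strand: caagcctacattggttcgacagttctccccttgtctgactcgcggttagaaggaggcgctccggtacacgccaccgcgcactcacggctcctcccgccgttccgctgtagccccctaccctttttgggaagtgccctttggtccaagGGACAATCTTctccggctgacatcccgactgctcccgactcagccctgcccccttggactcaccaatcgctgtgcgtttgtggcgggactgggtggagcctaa
*Zfp809*, chr9:22225453-22225702, plus strand: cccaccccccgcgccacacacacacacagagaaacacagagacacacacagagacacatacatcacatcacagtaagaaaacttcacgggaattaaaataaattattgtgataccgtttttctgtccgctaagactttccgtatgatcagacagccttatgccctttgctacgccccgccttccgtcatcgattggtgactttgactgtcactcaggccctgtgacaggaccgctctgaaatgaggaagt

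None of the 4 sequences held a p53 half-site without a mismatch, on either strand, and such a match was present in 7.13% of 32851 RefSeq promoter windows of the same length. With at most 1 mismatch, *Dyrk3* held 1 match (AAGCCAGTTT, 199 to 190 bases before the start) and *Psrc1* held 1 (GGACAATCTT, 103 to 94 bases before the start). *Klhdc4* and *Zfp809* held none. A match of this kind was present in 63.8% of all windows, so *Dyrk3* and *Psrc1* share it with most promoters. No window of the 4 genes held a pair of such half-sites 0 to 13 bp apart, an arrangement found in 5.6% of all windows. The absence of these letters says nothing about whether p53 bound the window. The sequences differed more in composition, since the GC content was 64.8% for *Dyrk3*, 61.6% for *Psrc1*, 57.2% for *Klhdc4* and 48.4% for *Zfp809*, against a median of 52.4%. The number of CG dinucleotides was 27, 18, 14 and 11 in the same order, against a median of 6, so all 4 windows were above the median in CG and 3 of 4 in GC. The sequence under the enriched regions themselves was not analysed here, because the peak positions are on GRCm39.

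The authors' table assigned 5 enriched regions to the 4 genes, each 400 bp long. The region of *Dyrk3* (chr1:131066908-131067307, GRCm39) lay 1030 bp upstream of the TSS. That of *Klhdc4* (chr8:122559313-122559712) lay farther out, 3204 bp upstream. The region of *Psrc1* (chr3:108291783-108292182) was 807 bp downstream of the TSS. *Zfp809* had a pair of regions, at 222 bp (chr9:22137090-22137489) and 1367 bp (chr9:22138235-22138634) downstream, with 1145 bp between their middles. It was one of 10 genes in the table with more than 1 region within 5 kb. Among the 185 near genes the best region was upstream for 98 and downstream for 87, and the best regions of the 4 genes likewise fell on both sides. All distances are those of the table, computed by the authors on mm10. The regions at *Dyrk3*, *Klhdc4*, *Psrc1* and the proximal one at *Zfp809* were each assigned to a single gene, which held for 112 of the 177 regions within 5 kb. The distal region of *Zfp809* was also assigned to *Zfp599*, another zinc finger gene, at 32757 bp downstream of its TSS. Of the nearest neighbours of the 4 genes in RefSeq order (*Eif2d* and *Mapkapk2*, *Gm42048* and *Jph3*, *Mybphl* and *Celsr2*, *Zfp872* and *Zfp599*), only *Zfp599* was in the table.

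All 5 regions had a peak in each of the 4 libraries, CTRL included. Of all 915 enriched regions 30.6% had a peak in each library, and of the 177 regions within 5 kb of a TSS 50.3% did. The best regions of the panel genes among the first 10 near genes also had a peak in each library. This was thus not particular to the 4 genes. The values below are the fold enrichment of the peak over its local background, and the rank of that fold within its own list, which held 50430 and 48743 peaks for CTRL and 39577 and 41451 for BLM. Because the enriched regions and the 4 genes were chosen by high values in BLM, the differences between CTRL and BLM are given as a description, with no test. An exact permutation test of 2 libraries against 2 could in any case give no two-sided p below 0.333.

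The peak upstream of *Dyrk3* reached a fold enrichment of 31.0 and 15.1 in CTRL, and of 78.0 and 89.2 in BLM. Both BLM values were above both CTRL values, and the CTRL libraries differed from each other by more than the BLM libraries did. The CTRL mean of 23.1 ± 11.2 stood against a BLM mean of 83.6 ± 7.94 (SD, n = 2 each), a ratio of 3.63. It ranked 167 and 5106 in the CTRL lists and 19 and 9 in the BLM lists, and in CTRL replicate 1 it stood at percentile 99.67. The ratio of any single BLM library to any single CTRL library lay between 2.52 and 5.90.

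At *Klhdc4* the fold enrichment was 26.2 and 25.9 in CTRL and 52.5 and 71.6 in BLM. The CTRL values were nearly equal and the groups did not overlap. The means were 26.1 ± 0.20 and 62.1 ± 13.5 (SD, n = 2 each), a ratio of 2.38. It ranked 457 in both CTRL lists, and 57 and 25 in the BLM lists. This was the highest CTRL mean among the best regions of the 4 genes, and in CTRL replicate 1 the fold of *Dyrk3* was higher.

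For *Psrc1* the fold enrichment was 11.6 and 21.9 in CTRL and 77.0 and 58.8 in BLM. The groups did not overlap, and the lower CTRL peak stood at percentile 78.6 of its list (rank 10772) against percentile 97.8 (rank 1066) for the other. The means were 16.8 ± 7.32 and 67.9 ± 12.9 (SD, n = 2 each), with a ratio of 4.05. Its ratios of any single BLM to any single CTRL library, 2.68 to 6.65, overlapped those of *Dyrk3*, so the order of these genes is not distinguished. The BLM peaks ranked 21 and 44.

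The regions of *Zfp809* behaved unlike each other. The distal peak, at 1367 bp, had a fold enrichment of 25.1 and 20.7 in CTRL and of 67.1 and 59.4 in BLM, with means of 22.9 ± 3.09 and 63.2 ± 5.43 (SD, n = 2 each) and a ratio of 2.76. It ranked 586 and 1453 in the CTRL lists and 34 and 43 in the BLM lists, and the groups did not overlap. The proximal peak, at 222 bp and across the TSS, had a fold enrichment of 15.5 and 8.02 in CTRL and of 15.5 and 11.6 in BLM. These groups overlapped, the means were 11.8 ± 5.28 and 13.5 ± 2.80 (SD, n = 2 each), and the ratio of any BLM library to any CTRL library ranged from 0.746 to 1.93. The proximal region was thus in the authors' enriched list without a difference in fold beyond the spread between libraries. Its ranks, 5054 and 21002 in CTRL and 1602 and 5331 in BLM, also overlapped.

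**Figure D1:**
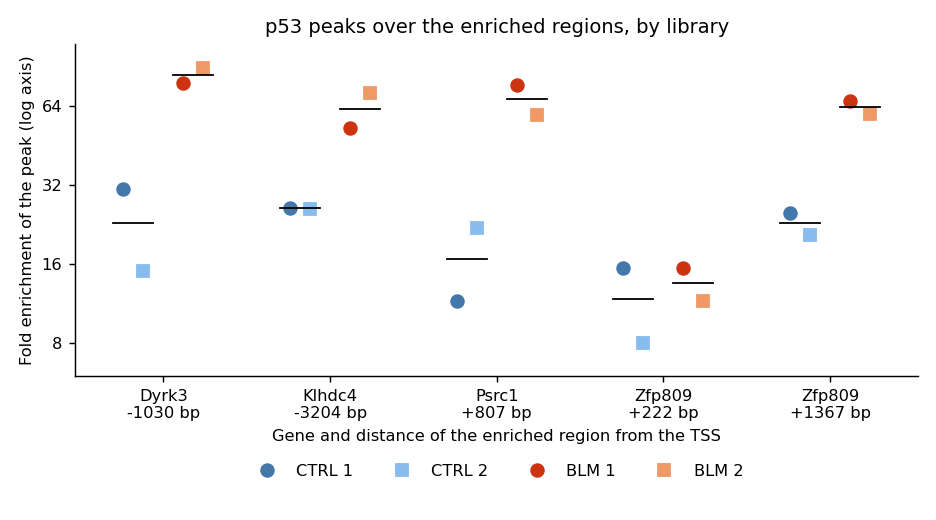
Fold enrichment of the p53 peak (log axis) over each of the 5 enriched regions of *Dyrk3*, *Klhdc4*, *Psrc1* and *Zfp809*. Each point is 1 library and each line the mean of 2 libraries. BLM points are above CTRL points at 4 regions, and the groups overlap at the *Zfp809* region 222 bp from the TSS.

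On the log2 scale the mean of BLM minus the mean of CTRL was 1.95 at *Dyrk3*, 1.23 at *Klhdc4*, 2.08 at *Psrc1*, and 0.26 and 1.47 at the proximal and distal regions of *Zfp809*. The pooled SD of the log2 folds within groups (2 libraries each) was 0.53, 0.22, 0.50, 0.52 and 0.16 in the same order, so the difference was larger than the spread at 4 of 5 regions. Across all 26316 joined regions with a peak in each library, most folds were lower in BLM, with a median log2 difference of -0.37. Relative to this median the 5 differences were 2.32, 1.60, 2.45, 0.64 and 1.84. Both BLM folds were above both CTRL folds in 5.87% of those joined regions and in 86.8% of the 280 enriched regions with a peak in each library, and in 4 of the 5 regions of these genes. Since these measures chose the regions, nothing is read from this count. Among the 280 enriched regions the log2 difference of *Psrc1* stood at percentile 81.8, *Dyrk3* at 75.4, distal *Zfp809* at 58.2, *Klhdc4* at 47.9 and proximal *Zfp809* at 8.57. The −log10 q of the peaks at the best regions of the 4 genes was between 33.1 and 116 in CTRL and between 193 and 371 in BLM, and it overlapped between the groups at proximal *Zfp809* (30.9 and 16.9 against 35.8 and 28.8).

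The position of the summit was not used to choose the genes. At the best region of each gene the 4 libraries placed it close together. The summits lay within 13 bp of each other at *Psrc1*, 15 bp at *Dyrk3*, 24 bp at distal *Zfp809* and 28 bp at *Klhdc4*. Peaks of like height were not compared, so this closeness is not read as a trait of these genes. Over the 89 regions within 5 kb of a TSS with a peak in each library, the lower quartile was 26 bp. The median over the 280 enriched regions with a peak in each library was 51.5 bp. The proximal *Zfp809* summits were spread over 50 bp, about that median, from 195 to 245 bp downstream of the TSS, with both CTRL summits (201 and 195 bp) closer to it than both BLM summits (228 and 245 bp). At the 4 best regions the summit positions of CTRL and BLM overlapped, as at *Dyrk3*, where CTRL gave -1029 and -1044 bp and BLM -1040 and -1029 bp. At these regions the CTRL and BLM peaks thus shared their summit position to within 28 bp and differed in height.

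Peak widths were less alike. The peak at *Psrc1* was 271 and 279 bp wide in CTRL and 1509 and 1036 bp wide in BLM. The peak at *Dyrk3* measured 857 and 685 bp in CTRL and 861 and 2005 bp in BLM, so that only BLM replicate 2 stood apart. At *Klhdc4* the widths were 301 and 322 bp in CTRL against 578 and 375 bp in BLM, and at distal *Zfp809* 576 and 545 bp against 667 and 668 bp. Both BLM widths were above both CTRL widths at these 4 regions, though by 4 bp only for the nearest pair at *Dyrk3*. The proximal *Zfp809* peak was 1046 and 660 bp wide in CTRL and 542 and 1403 bp in BLM, with no separation. The median width of all peaks was smaller in BLM (281 and 279 bp) than in CTRL (330 and 322 bp). Enriched regions within 5 kb of a TSS, with a peak in each library, went the other way. Over these 89 regions the median was 429 and 414 bp in CTRL and 697 and 695 bp in BLM. Wider BLM peaks were thus not particular to the 4 genes. The share of such regions without overlap in width was not computed.

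The label of promoter target fitted the 4 genes to different degrees. At *Klhdc4* a separate peak stood over the TSS in every library, with summits 21, 34, 66 and 44 bp upstream and a fold enrichment of 11.1 and 9.48 in CTRL and of 11.3 and 11.3 in BLM. The CTRL and BLM values of this TSS peak lay close together, and the BLM-enriched peak did not reach it. At *Dyrk3* a separate peak covered the TSS in CTRL replicate 1 (fold enrichment 9.01), CTRL replicate 2 (9.85) and BLM replicate 1 (6.42), while in BLM replicate 2 the enriched peak itself ran from 1698 bp upstream to 306 bp downstream. The summits of these separate peaks lay at 119, -65 and -627 bp in the same order, so their folds are not compared. CTRL replicate 2 had a further peak with its summit at -601 bp (5.72). At *Psrc1* the TSS had its own peak in both CTRL libraries (8.27 and 5.88) and in BLM replicate 2 (7.59), and in BLM replicate 1 the enriched peak ran from 91 bp upstream to 1417 bp downstream. Only at *Zfp809* did the peak of an enriched region span the TSS in every library, and that was the proximal peak, whose fold overlapped between the groups. None of the best summits of the 4 genes lay within 250 bp of the TSS.

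**Figure D2:**
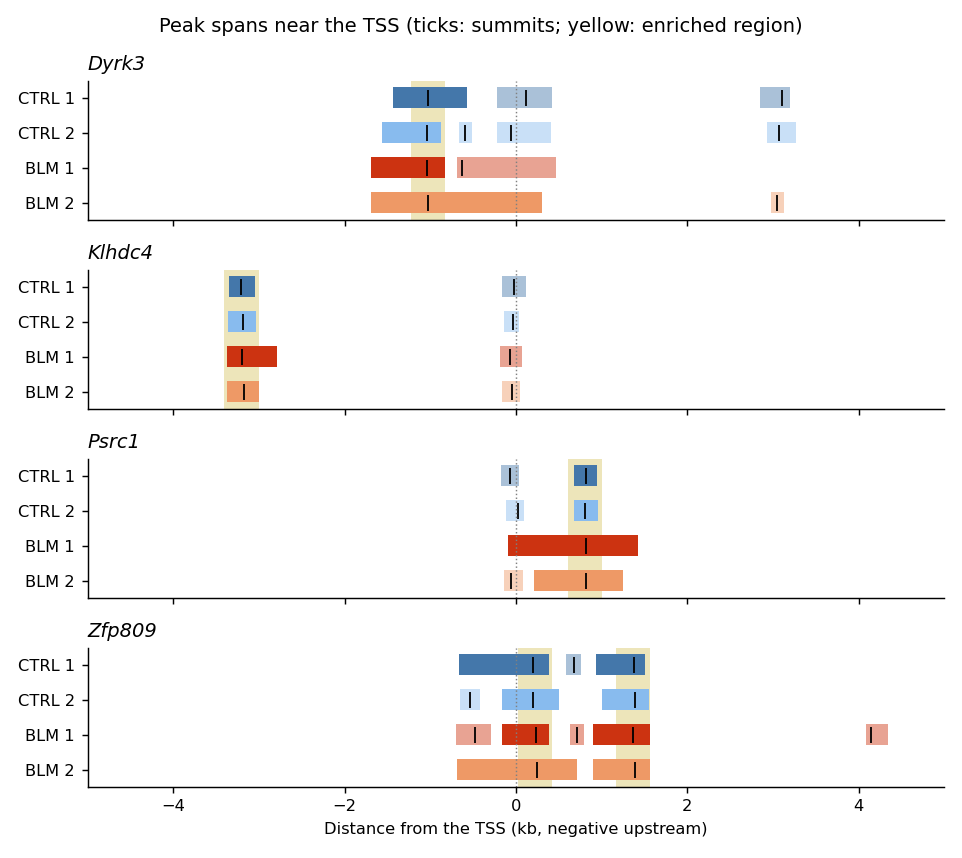
Span of every p53 peak within 5 kb of the TSS of *Dyrk3*, *Klhdc4*, *Psrc1* and *Zfp809*, by library, with distance from the TSS in kb. Ticks mark summits, pale bars are peaks off the enriched regions, and yellow marks the enriched regions. The summits on the best enriched region of each gene line up between CTRL and BLM. Those at the proximal region of *Zfp809* spread over 50 bp without overlap between the groups. *Klhdc4* has a separate TSS peak in all 4 libraries.

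Within 50 kb of the TSS, the 4 genes together had 39 and 38 peaks in CTRL, against 30 and 32 in BLM. The whole lists were also shorter in BLM. *Dyrk3* lay in the densest surroundings, with 21 and 19 peaks in CTRL and 14 and 16 in BLM. *Klhdc4* had 5 and 5 against 3 and 4, *Psrc1* 6 and 6 against 5 and 6, and *Zfp809* 7 and 8 against 8 and 6. The groups overlapped in number at *Psrc1* and *Zfp809* and not at *Dyrk3* and *Klhdc4*. The whole lists did not overlap in length either. The share of other gene windows without overlap was not computed, so nothing is read from these counts.

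In both BLM libraries the enriched peak was the highest of its window at all 4 genes. Because the genes were chosen by their high BLM peaks, this place is not read as a result. The next highest fold in the BLM windows, off the enriched regions, was 17.5 and 18.4 at *Dyrk3*, 11.3 and 11.3 at *Klhdc4*, 14.2 and 14.8 at *Psrc1*, and 8.56 and 14.6 at *Zfp809*. In the CTRL libraries the peaks of *Klhdc4* and distal *Zfp809* were already the highest of their windows. That of *Dyrk3* was the highest in replicate 1 and the sixth in replicate 2, where other peaks reached 21.4. That of *Psrc1* was the third in replicate 1, below peaks of up to 15.6, and the highest in replicate 2.

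Joined across libraries, the peaks formed 32 regions apart from the enriched ones in the 4 windows, and 16 of these had a peak in each library. The separate TSS peaks of *Dyrk3* and *Psrc1* overlapped a wide BLM peak and were joined with the enriched region. So were further peaks beside the proximal region of *Zfp809*, and none of these peaks is among the 32. Both BLM folds were below both CTRL folds in 7 of the 16 and above them in 2, against 47.2% and 5.87% of all joined regions with a peak in each library. Their median log2 difference was -0.32, near the -0.37 of all such regions, and the range was -1.34 to 0.44. The lowest value was that of a joined region downstream of the TSS of *Dyrk3*, with a mean summit position of 40693 bp. The highest fold enrichment in it was 16.4 and 18.3 in CTRL and 7.83 and 6.0 in BLM. This region joined several peaks. The 7.83 of BLM replicate 1 belonged to a summit at 41360 bp, and its peak at 40477 bp had 6.46. All 9 such regions around *Dyrk3* and all 3 around *Psrc1* had a negative difference, with medians of -0.35 and -0.28. Among all joined regions with a peak in each library the upper quartile was -0.07, so most of those were negative as well. At *Klhdc4* a peak 21603 bp upstream had a fold enrichment of 12.3 and 15.6 in CTRL against 6.08 and 6.0 in BLM, and at *Zfp809* one 11919 bp upstream had 18.02 and 19.7 against 8.56 and 14.6. The exceptions were the TSS peak of *Klhdc4* (0.14) and a weak peak 7447 bp upstream of *Zfp809* (0.44), with a fold enrichment of 3.86 and 6.56 in CTRL against 6.94 and 6.74 in BLM. No flanking region had a peak in both BLM libraries and in no CTRL library, and 3 had one in both CTRL libraries and in no BLM library. The share of all joined regions with such calls was not computed, so nothing is read from these counts. These flanking regions are by definition those outside the authors' enriched list, so their difference from the enriched peaks is not read as a result.

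**Figure D3:**
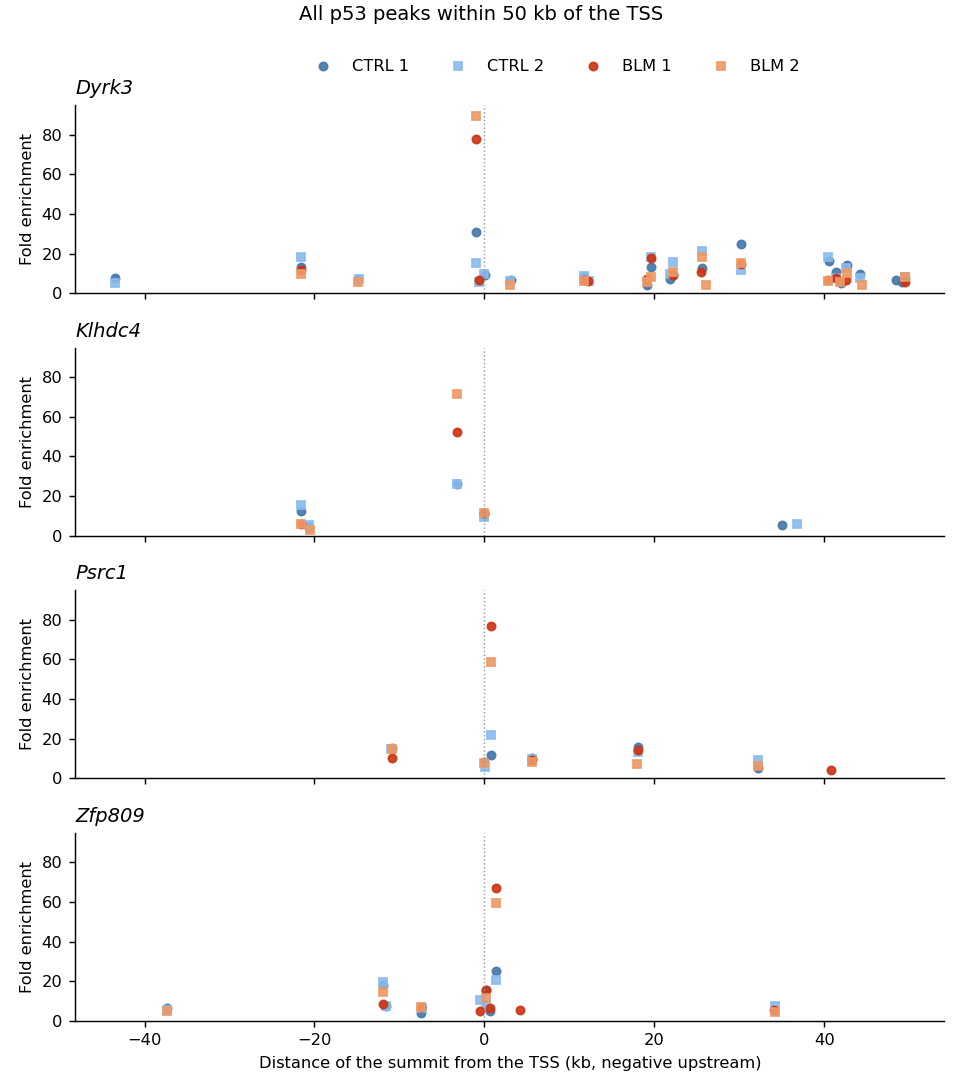
Fold enrichment of every p53 peak with a summit within 50 kb of the TSS, by library, against distance from the TSS in kb. In each panel the 2 BLM points of the best enriched region exceed 50, while every other BLM peak is below 20. The genes were chosen by these high BLM peaks.

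The p53 target panel gives the scale of these values. Of its 20 genes, 17 were in the table, all 17 with a region within 5 kb, and 16 of them had a peak in each library. *Perp*, *Polk* and *Tnfrsf10b* were not in the table, and the region of *Fas* had a peak only in the BLM libraries (14.1 and 13.3). Over the 16 genes the mean fold in CTRL ranged from 5.74 to 22.3 (median 13.7) and in BLM from 15 to 94.8 (median 51.4). The CTRL means of *Klhdc4* (26.1), *Dyrk3* (23.1) and distal *Zfp809* (22.9) were above the highest of the 16, that of *Zmat3*, an RNA-binding zinc finger gene, at 22.3. For *Dyrk3* and *Zfp809* this rested on CTRL replicate 1, since in replicate 2 their folds of 15.1 and 20.7 were below the 22.1 of *Zmat3* and the 22.4 of *Bbc3*. The fold of *Klhdc4* was above that of every panel gene in both CTRL libraries. Among the 99 near genes with a peak in each library, *Klhdc4* held place 4 by CTRL mean, *Dyrk3* 7, *Zfp809* 8 and *Psrc1* 19. By log2 difference the order was *Psrc1* at place 17, *Dyrk3* at 20, *Zfp809* at 42 and *Klhdc4* at 54. The log2 differences of the 16 panel genes ran from 1.04 to 2.60 with a median of 1.67, a range that holds all 4 values (1.23 to 2.08). The BLM level of the 4 genes was what chose them, so nothing is read from its place against the panel.

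The other 6 of the first 10 near genes by BLM percentile were the panel genes *Cdkn1a*, *Zmat3*, *Phlda3*, *Ephx1*, *Bbc3* and *Bax*, and *Dyrk3*, *Psrc1*, *Zfp809* and *Klhdc4* held places 2, 4, 9 and 10. *Klhdc4* was the last inside, at a mean percentile of 99.90, and *Olfr543*, an olfactory receptor gene, was the first outside at the same rounded value, with a fold enrichment of 15.4 and 8.21 in CTRL and of 72.8 and 53.03 in BLM. *Sp1*, a general transcription factor gene, came next, with 20.4 and 18.8 in CTRL and 57.0 and 60.5 in BLM. The BLM percentiles of neighbours in this order overlapped, so their places are not distinguished by these libraries.

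**Figure D4:**
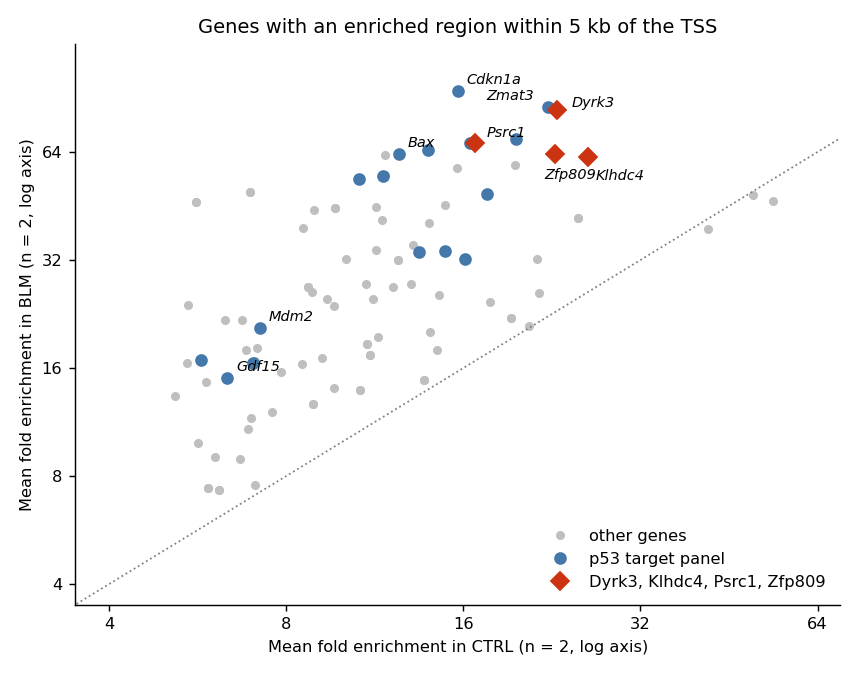
Mean fold enrichment in BLM against CTRL (n = 2 each, log axes) for the 99 genes whose best enriched region within 5 kb of the TSS has a peak in each library. The dotted line marks equal values. *Dyrk3*, *Klhdc4* and *Zfp809* have CTRL means to the right of all 16 panel genes (blue), which for *Dyrk3* and *Zfp809* rests on CTRL replicate 1. *Dyrk3*, *Klhdc4* and *Zfp809* were chosen by high BLM peaks and the panel genes were not.

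Likeness was measured as the Euclidean distance between the log2 folds of the 4 libraries, over the 98 other near genes with a peak in each. The nearest to *Dyrk3* were *Zmat3* (0.75), *Phlda3* (0.81), a gene for an inhibitor of Akt signalling, and *Zfp809* (0.83). *Klhdc4* was nearest to *Zfp809* (0.55), *Sp1* (0.65) and *Zmat3* (0.72). *Psrc1* stood nearest to *Bbc3* (0.58) and *Bax* (0.68), followed by *Bahcc1* (0.94). *Zfp809* was nearest to *Sp1* (0.41), *Klhdc4* (0.55) and *Bbc3* (0.68). *Psrc1* and its neighbours *Bbc3*, *Bax* and *Bahcc1* each had the lower CTRL fold in replicate 1. *Dyrk3* and its neighbours *Zmat3*, *Phlda3* and *Zfp809* had it in replicate 2. The CTRL folds are part of the distance that chose the neighbours, so this shared order is not read as a result. With 4 libraries these distances rest on 4 points per gene. The BLM folds, by which the 4 genes were chosen, are among these points. Nearness to other genes high in the BLM order is therefore not read as a result.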

How the data were processed

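Peaks were called by the authors in each p53 ChIP-seq library on its own. Per the file headers and layout, the authors deposited for each peak a score (its −log10 q multiplied by 10 and cut to a whole number), the fold enrichment over the local background (a ratio), and −log10 p-values and q-values. The lowest −log10 q was 2.00 to 2.03. The submitters' processing notes name Trim Galore 0.6.7, Bowtie2 2.5.1, MACS3 3.0.0b1, DiffBind 3.8.4, mm39 and mm10, among others and with no role. The control for calling, the treatment of duplicates and the test for enrichment are not given in the sources used here. No read counts were used, so the depth is unknown and no interval is given. The highest fold of a list was 83.1 and 84.8 in CTRL and 118 and 108 in BLM, and folds from different lists share no common scaling stated in these sources.

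The authors assigned the 915 enriched regions to genes with GREAT 4.0.4 (mm10, with a basal domain reaching 5000 bp up and 1000 bp down from the TSS and an extension of up to 1000000 bp). Positions are on GRCm39. The TSS was taken as the region middle minus the signed distance on the plus strand, or plus it on the minus strand, and may differ by some bases from the RefSeq start. No position was converted between builds. Peaks sharing at least 1 bp with a region counted as its peak, the highest fold being kept. Peaks overlapping between libraries were joined into regions. RefSeq promoters of GRCm38.p6 were searched for the half-site on both strands, and the planned search of the enriched regions was not possible without their sequence.

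Genes named are *Dyrk3*, *Klhdc4*, *Psrc1*, *Zfp809*, genes assigned to the same regions, the p53 target panel, and the 3 most similar near genes of each. The first genes outside the order's threshold and the RefSeq neighbours were added. Genes, panel and comparisons were chosen with earlier results of these data known. No test was run. Alternatives were other scalings, overlaps, windows and stricter peaks, each library left out in turn, and ranking by −log10 q. Python 3.11.15 was used (pandas 2.3.3, numpy 2.4.6, scipy 1.17.1, matplotlib 3.10.9), and the code was tested on simulated peak lists.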

Additional observations from a re-analysis of the deposited data

How the results depend on the processing

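Of 93 values recomputed under an alternative, 82 kept their direction and moved by less than the spread between replicates or by less than 1.5 times, 10 moved and 1 reversed. The value that reversed was the log2 difference at the proximal region of *Zfp809*, which was -0.21 without CTRL replicate 2 and ranged from -0.21 to 0.74 when each library was left out in turn. The same range was 1.43 to 2.46 at *Dyrk3*, 1.01 to 1.46 at *Klhdc4*, 1.62 to 2.54 at *Psrc1* and 1.33 to 1.61 at distal *Zfp809*. Relative to the median shift of all regions, an alternative chosen after seeing the data, *Klhdc4* moved to 1.60 and distal *Zfp809* to 1.84. With percentiles by −log10 q in place of fold, the rise in percentile became 1.56 points at *Klhdc4* (0.82 by fold) and 2.91 at distal *Zfp809* (1.98 by fold). It became smaller at *Dyrk3* (0.68 against 5.37 by fold), *Psrc1* (6.97 against 11.7) and proximal *Zfp809* (16.9 against 18.1). These falls were within the spread between libraries and so were not counted as moved. The range of the *Psrc1* summits was 5 to 13 bp with each library left out. The mean number of peaks per library was 12.5 in CTRL and 11 in BLM within 10 kb, and 72 and 57 within 100 kb. Allowing 1 mismatch raised the number of the 4 promoters with a half-site from 0 to 2. The cause of these moves was not tested. All 5 regions had a peak in each library with a −log10 q of at least 5, with an overlap of 50%, and with 39577 peaks per list. No paired analysis was possible because no test was run and the sources used here do not say which libraries share a mouse. Taken by replicate number, as a description, the log2 difference was 1.33 and 2.56 at *Dyrk3*, 1.00 and 1.46 at *Klhdc4*, 2.73 and 1.42 at *Psrc1*, 0.0033 and 0.53 at proximal *Zfp809*, and 1.42 and 1.52 at distal *Zfp809*. With 2 libraries a group and no read counts, small differences such as that at the *Klhdc4* TSS could not be told from the spread between libraries.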
